A study of Mus musculus with 4 samples.

Results

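The Pi16 Dpp4 stromal progenitors of mouse brown adipose tissue (BAT) were taken as the stromal cells in which the summed counts of Pi16, Dpp4, Sbsn and Igfbp6 reached at least 10 per 10000 unique molecular identifiers (UMIs) and exceeded the sums of 2 other stromal signatures, Col15a1, Col4a1, Col4a2 and Sparcl1 for committed preadipocytes and Cilp, Eln, Apod, Hmcn2 and Inmt for Cilp fibroblasts. Cells also had to reach 60 per 10000 UMIs of Col1a1, Col1a2, Col3a1, Dcn and Gsn, stay under 20 for the macrophage genes Lyz2, C1qa, C1qb and C1qc and under 20 for the endothelial genes Cdh5, Cldn5 and Gpihbp1, and stay under 5 for Has1, Ptx3 and Tnfaip6, genes of activated stroma. The rule was met by 4255 of 28887 cells that passed quality limits, which is 4255 of 12705 stromal cells.

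Cells marked by Pi16 and Dpp4 are known from many tissues as fibroblasts of the loose connective tissue that envelops organs and vessels. In fat depots they are regarded as an early mesenchymal progenitor, from which preadipocytes committed to the fat lineage can arise, and they secrete matrix proteins, Wnt ligands and complement factors. Pi16 encodes a secreted peptidase inhibitor, Dpp4 a membrane dipeptidase that trims chemokines and incretins, Sbsn the secreted protein suprabasin, and Igfbp6 a binding protein for insulin-like growth factors. In the mm10 build Pi16 lies on the plus strand at chr17:29317680-29330593, Dpp4 on the minus strand at chr2:62330073-62412231, Sbsn on the plus strand at chr7:30751471-30756134 and Igfbp6 on the plus strand at chr15:102144362-102149511, all 4 as protein-coding genes.

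Stromal vascular fraction (SVF) was taken from BAT of 4 groups of mice labelled with the strain C57BL6/J, and each group gave 1 library, for which the study pooled 3 mice. The groups were wild type (WT, 10 weeks old), db/db mice at 8 weeks (db/db 8w) and at 16 weeks (db/db 16w), which carry a mutant leptin receptor in every tissue and become obese and diabetic, and mice on a high-fat diet (HFD). The HFD library was labelled 10 weeks old, but the study started the diet at that age and fed it for 10 weeks. The label and the methods therefore differ on the age of the HFD mice. The methods also give the db/db mice as B6.BKS(D)-Leprdb/J from Jackson, and the wild-type mice as from Charles River. With 1 library per group there was no replicate and no test. All intervals below are exact 95% intervals that cover counting error only, and each obese library was set against the same WT library. Wherever 4 values are listed without names they stand for WT, the younger db/db, the older db/db and the HFD library, and lists of 3 log2 ratios leave out WT.

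The progenitors numbered 2280 in WT, 1798 and 35 in db/db mice (8w and 16w) and 142 in HFD, and held 17205068, 7821393, 80747 and 634983 UMIs in that order. A level of 0 UMIs therefore allowed up to 0.174 counts scaled to 1000000 UMIs (CPM) in WT, 0.384 and 37.2 in db/db mice (8w and 16w) and 4.72 in HFD, and the values of db/db 16w are the least precise throughout. The libraries also stood apart in other ways. The db/db 16w progenitors carried Xist at 718 CPM, against 0 to 0.256 CPM in the other 3 libraries, and Ddx3y at 24.8 CPM (2 UMIs) against 73.5 to 131 CPM, although the study describes its mice as males. The median share of mitochondrial UMIs in the progenitors was 3.73% in WT, 5.27% and 1.06% in db/db mice (8w and 16w) and 10.9% in HFD. The 5 erythroid markers summed to 2.62 CPM in WT, 756 and 309.6 CPM in db/db mice (8w and 16w) and 7.87 CPM in HFD, and the 8 T cell markers stayed at or under 9.45 CPM in all 4. Any 2 libraries shared 16 to 97 barcodes, with at most 1 progenitor barcode among them. The part of age, sex, strain, supplier, mitochondrial share and erythroid RNA in the values below was not tested.

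The progenitors made up a smaller share of the stroma in each obese library than in WT. They were 53.2% of stromal cells in WT (51.7% to 54.7%), 31.6% (30.4% to 32.8%) and 2.98% (2.08% to 4.12%) in db/db mice (8w and 16w) and 9.15% in HFD (7.76% to 10.7%), and no 2 of these intervals overlapped. The committed Col15a1 preadipocytes were 8.85%, 40.2%, 88.8% and 68.0% of stromal cells in the same order, so the 2 classes stood in the opposite order across the libraries. Among all cells past the quality limits the progenitors were 38.4% in WT, 15.4% and 0.600% in db/db mice (8w and 16w) and 2.60% in HFD. These shares describe the cells captured, since a sort preceded capture, its gate was not given, and shares within 1 library depend on each other.

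**Figure D1:**
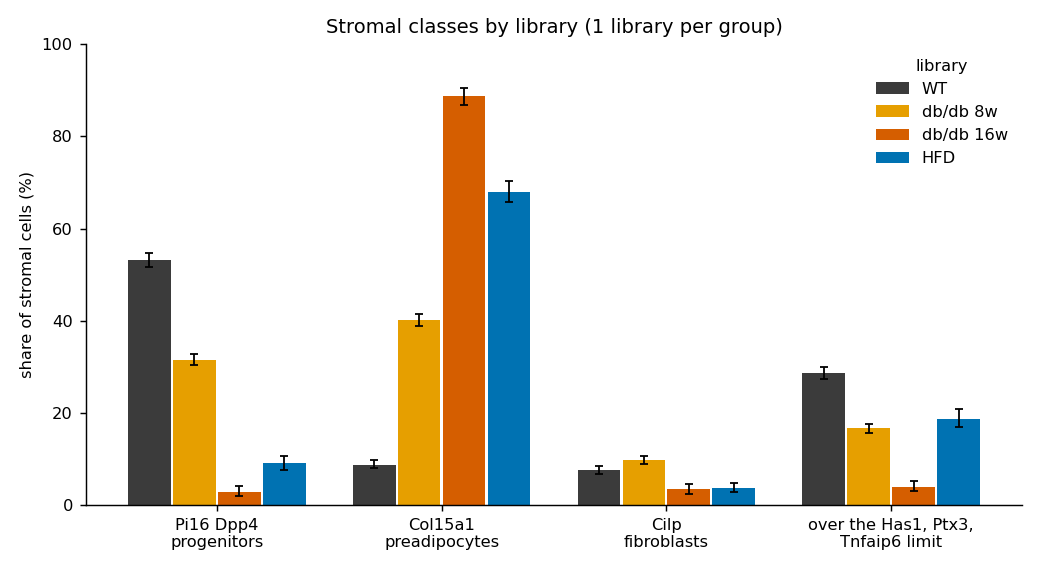
Share of stromal cells (%, vertical axis) in the Pi16 Dpp4 progenitors, the Col15a1 preadipocytes, the Cilp fibroblasts and the cells over the limit for Has1, Ptx3 and Tnfaip6, with 1 bar for each library and exact 95% intervals for counting error. The progenitor bar is at 53.2% in WT, 31.6% in db/db 8w, 9.15% in HFD and 2.98% in db/db 16w, and the Col15a1 bar runs in the opposite order, from 8.85% to 88.8%.

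The order WT, db/db 8w, HFD, db/db 16w was the same under all 13 other settings tried, among them leaving out each marker in turn, thinning cells to a fixed depth and dropping predicted doublets. The limit on Has1, Ptx3 and Tnfaip6 mattered most in WT. There, 959 of the 1226 cells it removed had the progenitor sum as their highest, against 370 of 950 and 5 of 48 in db/db mice (8w and 16w) and 49 of 292 in HFD. Without that limit the shares were 75.6% in WT, 38.1% and 3.40% in the younger and older db/db mice, and 12.3% in HFD. The mitochondrial limit mattered most in HFD, where 208 further barcodes met every other part of the rule, more than the 142 that were kept.

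Few cells lay near the marker minimum. Sums of 10 to 15 were found in 63 progenitors in WT, 57 and 2 in db/db mice (8w and 16w) and 0 in HFD, and sums of 5 to 10 in 36, 24, 2 and 0 stromal cells that would otherwise have met the rule. More cells were decided by the comparison between signatures. A progenitor sum of at least 10 was exceeded by another stromal sum in 350 cells in WT and 215 in HFD. In db/db mice (8w and 16w) this held for 1370 and 266 cells. Such cells outnumbered the progenitors in db/db 16w and HFD. In the Col15a1 preadipocytes Igfbp6 alone held 491 of the 545 CPM of the progenitor sum in db/db 16w and 459 of 568 CPM in HFD. The median marker sum of the progenitors was 50.6 per 10000 UMIs in WT, 64.3 and 51.2 in db/db mice (8w and 16w) and 90.2 in HFD.

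The cells were chosen by their counts of the 4 marker genes, so the levels of these genes are a description. Pi16 stood at 2964 CPM (2938 to 2990) in WT, 3254 (3214 to 3294) and 2019 (1721 to 2353) in db/db mice (8w and 16w) and 4131 in HFD (3974 to 4292). Dpp4 was at 692, 539, 372 and 806 CPM in that order, so both genes were highest in HFD and lowest in db/db 16w. Sbsn was at 474, 939, 309.6 and 1392 CPM. Igfbp6 was at 2157, 3165, 2848 and 2712 CPM, and it was also the least restricted of the 4, with 650.0 CPM in the Col15a1 preadipocytes of WT and 459 CPM in those of HFD. UMIs of both Pi16 and Dpp4 were found in 88.1% of progenitors in WT, 64.8% and 37.1% in db/db mice (8w and 16w) and 88.0% in HFD. After thinning to 1000 UMIs per cell these shares were 40.4% (38.3% to 42.4%), 32.7% (30.4% to 35.1%), 17.9% (6.06% to 36.9%) and 52.8% (44.3% to 61.2%), over 2229, 1529, 28 and 142 cells deep enough. Macrophages, which should lack these genes, held both in 5.17%, 0.522%, 0% and 0.407% of cells without thinning, at median depths of 5668.0, 5117.0, 4616.0 and 5674.5 UMIs, against 6454.5, 3638.5, 1965.0 and 4189.5 in the progenitors. Neither Pi16 nor Dpp4 was detected in 18 progenitors in WT, 122 and 7 of 35 in db/db mice (8w and 16w) and 2 in HFD.

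The progenitors were next described by a list of 32 progenitor genes outside the rule, chosen with earlier results of these data known. Of these, 31 had a mean of at least 20 CPM in the progenitors over the 4 libraries. Compared with the Col15a1 preadipocytes of the same library, 30 of the 31 were higher in the progenitors in WT, 31 and 29 in db/db mice (8w and 16w) and 30 in HFD, while 50.4% to 65.6% of all 5965 genes kept by the same minimum were higher. The list genes at least 2-fold higher numbered 25, 28, 28 and 29, against 4.09%, 4.81%, 11.1% and 5.77% of all kept genes. The cells over the Has1, Ptx3 and Tnfaip6 limit were closer to the progenitors in WT, where 0 of the 31 genes differed from them 2-fold upward, than in the other libraries, where 19, 28 and 23 did. Of all kept genes, 0.0335% in WT, 1.66% and 19% in db/db mice (8w and 16w) and 4.98% in HFD did so. In db/db 16w that comparison rests on 35 and 48 cells. As the classes were cut from the same counts and the list was not chosen blind to them, these are descriptions and cannot check the label.

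Outside the rule, the genes that stood furthest above every other stromal class in all 4 libraries included secreted and axon-guidance proteins. Pcolce2, an enhancer of procollagen processing, was at 1012 CPM in WT, 843 and 694 in db/db mice (8w and 16w) and 904 in HFD, against 273, 185, 37.7 and 82.2 CPM in the Col15a1 preadipocytes. Sema3c, a secreted semaphorin, was at 732, 1078, 533 and 1731 CPM against 93.6, 50.1, 5.34 and 43.1 CPM. Sfrp2, a secreted Wnt modulator, was at 1005, 522, 594 and 370.1 CPM against 114, 78.3, 92.6 and 22.1 CPM. The other 9 genes of this kind were Islr2, Krtdap, Snx21, Itgb7, Ntn4, Tmem158, Vsig10, Qpct and Adgrg2. Sema3c and Sfrp2 were both above the Col15a1 preadipocytes in every library and stood in opposite orders between WT and HFD. The cells over the Has1, Ptx3 and Tnfaip6 limit lay closer to the progenitors in WT. There only 0.0335% of kept genes were at least 2-fold above them in the progenitors, so most genes named here were not.

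**Figure D2:**
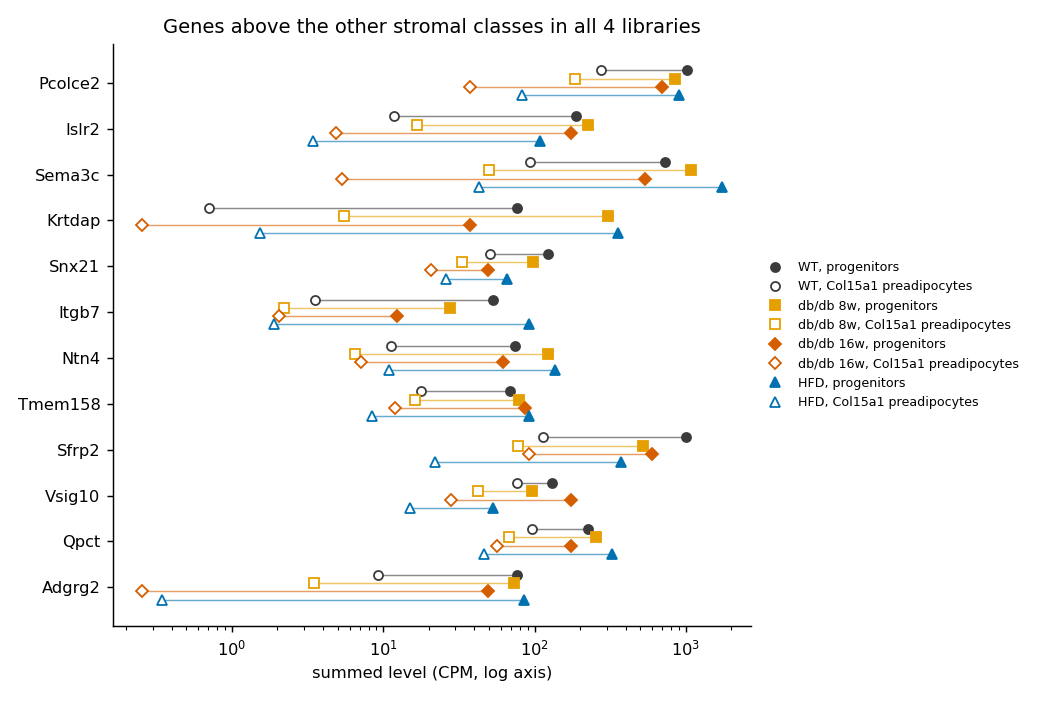
Summed level (CPM, log axis) of the 12 genes outside the rule that stood highest above the other stromal classes, in the progenitors (filled) and in the Col15a1 preadipocytes (open), with 1 symbol for each library. Every filled symbol lies to the right of its open partner, for Pcolce2 at 694 to 1012 CPM against 37.7 to 273 CPM.

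Within a library, the progenitor genes outside the rule stood higher in cells with a higher marker sum. In WT the 31 genes together held 13037 CPM in the 282 cells with a sum of 10 to 25, 16299 CPM in the 838 cells at 25 to 50, 19789 CPM in the 934 cells at 50 to 100 and 24809 CPM in the 226 cells at 100 and over. In db/db 8w the same bins held 12928, 19542, 26087 and 31691 CPM, and in HFD the bins from 25 up held 21195, 29099 and 31787 CPM. Depth and mitochondrial share moved with the bins, from a median of 3545.0 UMIs and 6.92% mitochondrial UMIs in the lowest bin of WT to 7946.5 UMIs and 2.67% in the highest, and their part was not tested. At equal bins above 25, db/db 8w and HFD held more of these transcripts than WT.

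Levels in the progenitors of each obese library were next set against WT, with a gene called when its log2 ratio of summed CPM, 10 CPM added to both, was at least 1 in size. In db/db 8w, 112 genes were higher and 60 lower, which is 1.88% and 1.01% of the 5965 genes kept. In HFD, 184 were higher (3.08%) and 168 lower (2.82%). In db/db 16w, 501 were higher (8.4%) and 761 lower (12.8%), and 361 and 281 of these had a counting interval of the ratio that excluded 0. These shares over all kept genes are the background for the counts of list genes given below. The median log2 ratio over all kept genes was 0.03 and 0.02 in db/db mice (8w and 16w) and 0.01 in HFD. In all 3 obese libraries 31 genes were higher (0.52% of those kept) and 24 lower (0.402%), and with db/db 16w left aside 57 were higher and 33 lower in the remaining pair. The 57 make up 50.9% of the db/db 8w calls and 31% of the HFD calls.

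The gene furthest below WT in all 3 libraries was Cxcl13, followed by Fgl2, Il1r2, Plac8 and Gpx3, ranked by the smallest of the 3 ratios with 10 CPM added. Cxcl13, a chemokine that attracts B cells, was at 1442 CPM in WT, 125 and 86.7 (7 UMIs) in db/db mice (8w and 16w) and 175 in HFD, and its log2 ratio to WT without added counts was -3.52 (-3.62 to -3.43), -4.06 (-5.37 to -3.01) and -3.04 (-3.33 to -2.78). Il1r2, the decoy receptor for interleukin 1, was at 304, 35.3, 24.8 (2 UMIs) and 53.5 CPM, with log2 ratios of -3.11 (-3.29 to -2.93), -3.62 (-6.66 to -1.77) and -2.51 (-3.04 to -2.02). For both genes the WT interval lay far above those of the other 3 libraries. Gpx3, the secreted glutathione peroxidase, was at 2203, 519, 483 and 214 CPM. Fgl2, a secreted fibrinogen-like protein, was at 550.5, 102, 37.2 (3 UMIs) and 52.0 CPM, and Plac8 was at 576, 109, 49.5 (4 UMIs) and 123 CPM. The aminopeptidase gene Lvrn was at 217, 55.9, 24.8 (2 UMIs) and 69.3 CPM. The lower level of Cxcl13 was shared by the Col15a1 preadipocytes, at 1927 CPM in WT and 384, 28.8 and 117 CPM in the obese libraries.

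**Figure D3:**
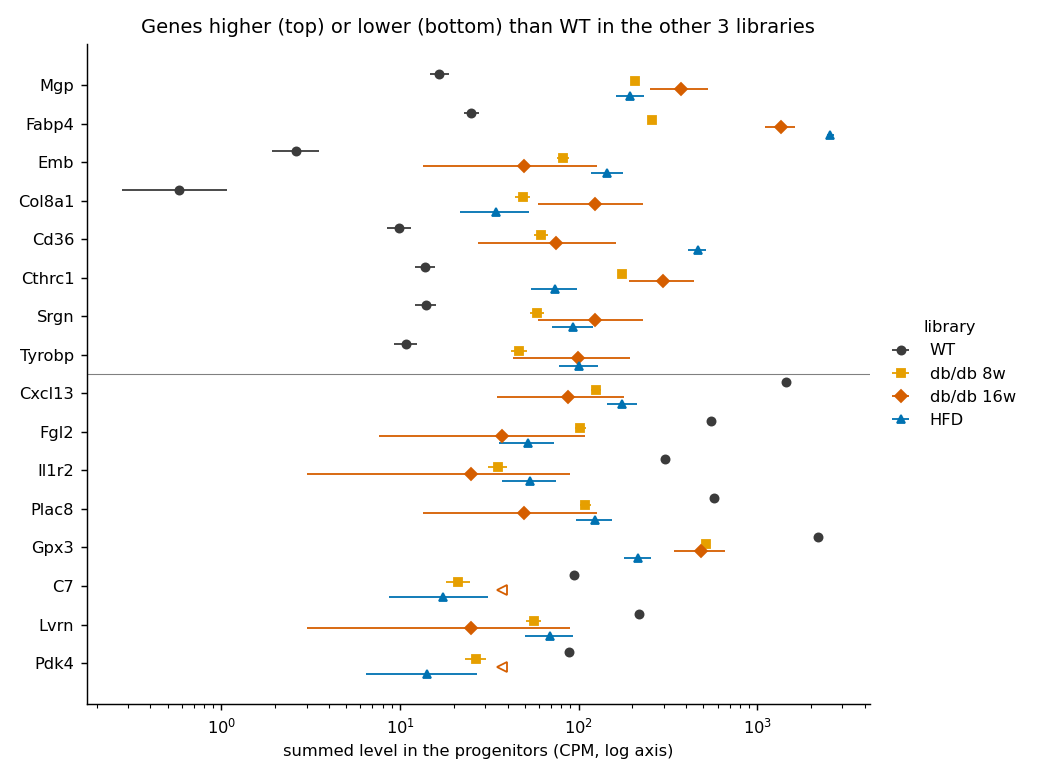
Summed level in the progenitors (CPM, log axis) of 8 genes higher and 8 genes lower than WT in all 3 obese libraries, ranked by the smallest of the 3 ratios with 10 CPM added, with 1 symbol for each library and exact 95% Poisson intervals. Open triangles mark genes with 0 UMIs in db/db 16w, drawn at the 37.2 CPM that a count of 0 allows, and the WT symbol lies to the left of the others in the top 8 genes and to the right in the bottom 8, as for Cxcl13 at 1442 CPM.

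Complement genes were on balance lower in the progenitors of all 3 obese libraries. The 15 genes listed summed to 8965, 5229, 3988 and 6608 CPM there, and to 7758, 2935, 2421 and 5007 CPM in the Col15a1 preadipocytes. Of 15 genes listed, 9 were kept, and 5 were lower and 0 higher in db/db 8w, 6 and 0 in db/db 16w and 4 and 1 in HFD, with median log2 ratios of -1.06, -1.30 and -0.63. C3, the central component, was at 4192 CPM in WT, 2007 and 867 in db/db mice (8w and 16w) and 1915 in HFD, with log2 ratios of -1.06 (-1.09 to -1.04), -2.27 (-2.63 to -1.94) and -1.13 (-1.21 to -1.05). C7, of the membrane attack complex, was at 94.5, 21.1, 0 and 17.3 CPM, where 0 UMIs in db/db 16w allow up to 37.2 CPM. The gene called higher in HFD was Cd55, a membrane regulator that shields cells from complement. Cd55 is also a progenitor gene and was at 357, 679, 569.7 and 1186 CPM, the highest level again in HFD. The complement protease gene C1s1, counted alone, was above WT in HFD too, short of 2-fold, at 456, 229, 396 and 616 CPM. Its near-identical copy C1s2 was at 224, 111, 74.3 and 0 CPM. Reads may have been split between them, so the higher level of C1s1 in HFD is uncertain.

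Progenitor genes outside the rule were on balance higher in db/db 8w and HFD. Of the 31 kept, 5 were at least 2-fold higher and 0 lower in db/db 8w, and 9 were higher and 0 lower in HFD, with medians of 0.40 and 0.61 on the log2 scale. In db/db 16w 3 were higher and 11 lower with a median of -0.45, or 10 lower with a median of -0.40 when the 2 genes at 0 UMIs were set to the level a count of 0 allows. Krtdap, a small secreted protein known from keratinocytes, was at 77.1 CPM in WT, 305 and 37.2 (3 UMIs) in db/db mice (8w and 16w) and 356 in HFD. Wnt2, a Wnt ligand, was at 36.6, 84.8, 111 and 83.5 CPM. Limch1, an actomyosin regulator, was at 139, 199, 49.5 (4 UMIs) and 337 CPM. Il33, an alarmin cytokine that sustains regulatory T cells in fat, was at 85.3, 49.7, 0 and 233 CPM and so was higher than WT in HFD only. The genes closest to their WT level were Ly6a, the surface antigen Sca-1, at 1994, 1924, 2130 and 2025 CPM, Ly6c1 at 917, 843, 805 and 805 CPM, and Clec3b, which encodes tetranectin, at 2527, 2387, 2824 and 2137 CPM.

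Genes of elastic fibres were among the most abundant that differed. Of 14 kept, 5 were higher and 0 lower in db/db 8w, 3 and 3 in db/db 16w and 3 and 1 in HFD, with medians of 0.39, 0.48 and 0.49. Fbn1, the microfibril protein fibrillin 1, was at 1498 CPM in WT, 3509 and 2774 in db/db mice (8w and 16w) and 4602 in HFD, with log2 ratios of 1.23 (1.20 to 1.25), 0.89 (0.69 to 1.08) and 1.62 (1.56 to 1.67). Its partner Mfap5 was at 1374, 4017, 2564 and 3117 CPM, and fibulin 2, Fbln2, was at 323, 1331, 2341 and 893 CPM. Fbln1 went the other way, at 201, 120.3, 24.8 (2 UMIs) and 64.6 CPM. The 3 higher genes stood above WT in every obese library, with the highest level of each in a different library.

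Other matrix genes were higher mainly in the 2 db/db libraries. Of 13 collagens outside the rule, 5 were higher and 0 lower in db/db 8w, 6 and 0 in db/db 16w and 2 and 1 in HFD, with medians of 0.61, 0.95 and -0.11. Col8a1, a network-forming collagen, had 10 UMIs or 0.581 CPM in WT and stood at 48.6, 124 and 34.6 CPM in the obese libraries. Col6a5 was at 6.16, 72.4, 124 and 3.15 CPM and Col12a1, a collagen at fibril surfaces, at 120.3, 357, 483 and 250.4 CPM. Among 21 proteoglycan and matricellular genes, 7 were higher and 0 lower in db/db 8w, 9 and 3 (2 at the level a count of 0 allows) in db/db 16w and 4 and 0 in HFD. Bgn, the proteoglycan biglycan, was at 104, 775, 1424 and 289.8 CPM. Postn, the matricellular protein periostin, was at 276, 837, 1610 and 238 CPM, and Prg4, the lubricant proteoglycan, at 144, 455, 731 and 67.7 CPM. For Postn and Prg4 the HFD library was at or under WT while both db/db libraries were above it. The collagen-associated secreted protein Cthrc1 was at 13.8, 176, 297 and 74.0 CPM, and the protease inhibitor Timp1 at 15, 182, 173 and 39.4 CPM.

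Mgp, the matrix Gla protein that inhibits calcification, was one of the 31 genes higher in all 3 libraries, at 16.6 CPM in WT, 206 and 372 in db/db mice (8w and 16w) and 195 in HFD, with log2 ratios of 3.63 (3.45 to 3.82), 4.48 (3.89 to 5.03) and 3.55 (3.24 to 3.86). It is also a preadipocyte gene, and in the Col15a1 preadipocytes it was at 98.9, 863, 1117 and 1958 CPM. Emb, which encodes the membrane glycoprotein embigin, was at 2.62, 82.1, 49.5 (4 UMIs) and 145 CPM in the progenitors and at no more than 15.3 CPM in the Col15a1 preadipocytes, while macrophages held 108 to 165 CPM. Of 14 preadipocyte and lipid genes kept, 5 were higher and 2 lower in db/db 8w, 4 and 4 in db/db 16w and 6 and 2 in HFD. Pparg and Cebpa, the main transcription factors of fat cell formation, were under the 20 CPM minimum and were not compared. Of 14 adipogenic transcription factors kept, 0 were called in db/db 8w, 1 higher and 4 lower (3 at the level a count of 0 allows) in db/db 16w, and 0 higher and 1 lower in HFD, the latter being Cebpb at 282 CPM in WT and 102 CPM in HFD.

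**Figure D4:**
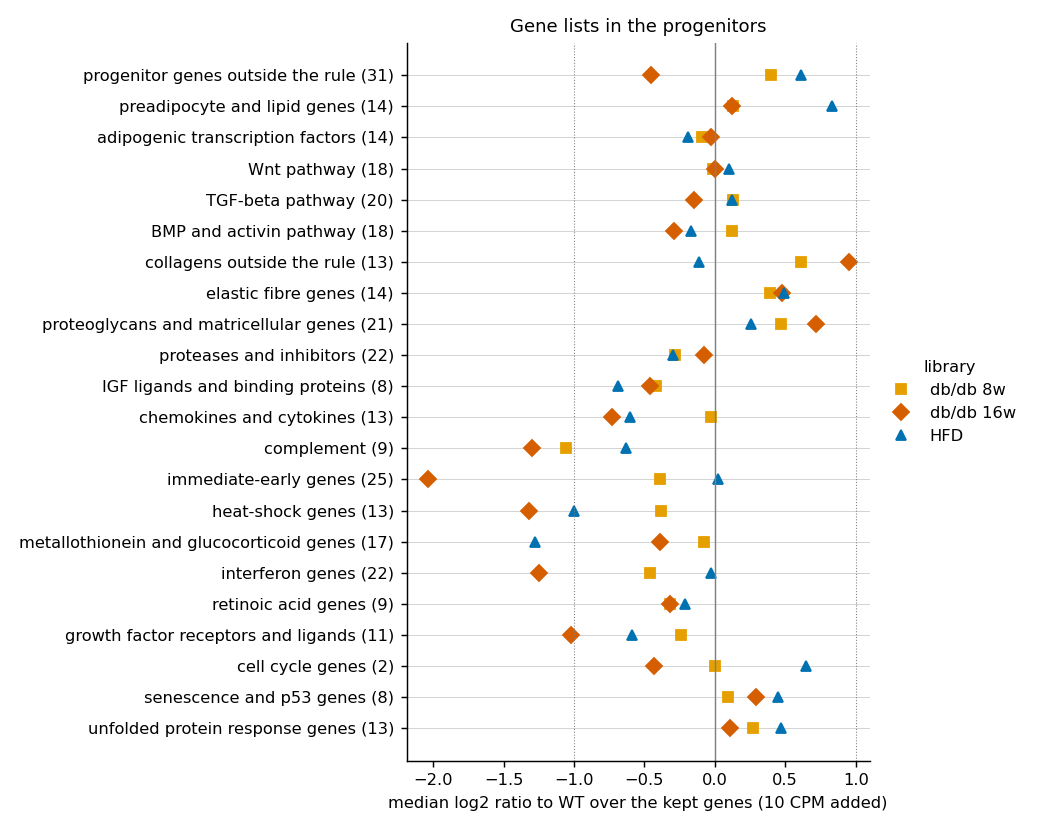
Median log2 ratio to WT (10 CPM added) over the kept genes of 22 gene lists in the progenitors, with 1 symbol for each obese library, the number of kept genes in parentheses, a solid line at 0 and dotted lines at a 2-fold difference. Complement lies left of 0 in all 3 libraries (-1.06, -1.30 and -0.63), and elastic fibre genes lie right of 0 in all 3 (0.39, 0.48 and 0.49). In db/db 16w the TGF-beta and cell cycle medians, -0.15 and -0.43, become 0.01 and 0.69 with genes at 0 UMIs set to the level a count of 0 allows. The BMP and activin, chemokine and interferon medians there, -0.29, -0.73 and -1.25, become -0.06, -0.42 and -0.68.

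Ligands, receptors and binding proteins of growth factor pathways differed gene by gene. Igfbp5, which binds insulin-like growth factors, was at 1915 CPM in WT, 5311 and 4136 in db/db mice (8w and 16w) and 7054 in HFD. Igfbp7 was at 274, 577, 1263 and 255 CPM. Igfbp3, the main carrier in serum, was at 416, 305, 272 and 39.4 CPM, and in HFD it was also low in the Col15a1 preadipocytes, at 31.6 CPM against 859.9 CPM in WT. Of 11 growth factor receptors and ligands kept, 0 were higher and 3 lower in db/db 8w, 0 and 6 in db/db 16w and 0 and 4 in HFD. Egfr, the epidermal growth factor receptor, was at 684, 271, 248 and 205 CPM, and Vegfd, a lymphatic growth factor, at 198, 56.0, 61.9 (5 UMIs) and 88.2 CPM. Both were below WT in all 3 libraries.

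Over all kept genes, 8.4% were higher and 12.8% lower in db/db 16w, 1.88% and 1.01% in db/db 8w and 3.08% and 2.82% in HFD. In the Wnt list, 18 genes were kept, with 1 higher and 1 lower in db/db 8w, 5 and 4 in db/db 16w and 2 and 1 in HFD, and medians of -0.01, 0.00 and 0.10. The 4 lower in db/db 16w became 2 when genes at 0 UMIs were set to the level a count of 0 allows. Rspo3, a secreted amplifier of Wnt signalling, was at 75.6, 69.2 and 85.0 CPM in WT, db/db 8w and HFD and at 0 UMIs in db/db 16w. Sfrp4, a secreted Wnt inhibitor, was at 139, 208, 582 and 153 CPM in the 4 libraries. Of 20 TGF-beta genes kept, 5 were higher and 0 lower in db/db 8w, 4 and 5 in db/db 16w and 4 and 1 in HFD. At the level a count of 0 allows, 3 of them were lower in db/db 16w and the median there moved from -0.15 to 0.01. Ltbp4, which anchors latent TGF-beta in the matrix, was at 33.3, 97.4, 223 and 85.0 CPM, above WT in all 3. Ccn2, a target of the pathway, was at 15.8, 114, 0 and 50.4 CPM, where 0 UMIs in db/db 16w allow more than the WT level. Of 18 BMP and activin genes, 1 was higher and 1 lower in db/db 8w, 4 and 2 (1 at the level a count of 0 allows) in db/db 16w and 1 and 2 in HFD. Chrdl1, a secreted BMP antagonist, was at 276, 99.1, 211 and 67.7 CPM, and Id3, a target gene, at 712, 418, 533 and 184 CPM, so both were lowest in HFD.

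Stress-response genes separated the libraries from each other. Of 13 heat-shock genes, 8 were lower and 0 higher in HFD with a median of -1.0, 10 and 0 in db/db 16w with a median of -1.32, and 1 and 0 in db/db 8w with a median of -0.38. Hspa1b, an inducible chaperone, was at 3101 CPM in WT, 1723 and 1065 in db/db mice (8w and 16w) and 47.2 in HFD, and its near-identical copy Hspa1a was at 2633, 1413, 495 and 48.8 CPM, so reads may have been split between them. Hspb1 was at 1454, 1488, 1536 and 156 CPM. The low level in HFD was shared by other classes, with Hspa1b at 58.7 CPM in the Col15a1 preadipocytes and 32.0 CPM in macrophages of that library, against 2544 and 5438 CPM in WT. Of 25 immediate-early genes, all 25 were lower in db/db 16w with a median of -2.04, or 23 with a median of -1.95 when the 2 genes at 0 UMIs were set to the level a count of 0 allows. In db/db 8w 0 were higher and 1 lower, and in HFD 2 were higher and 3 lower. Fosb was at 252, 165, 24.8 (2 UMIs) and 942 CPM. Fosb, an early transcription factor gene, was thus highest in HFD and near the limit of detection in db/db 16w, and tissue handling and group cannot be told apart with 1 library each.

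Glucocorticoid-responsive and metallothionein genes were lower in HFD, with 9 of 17 lower and 1 higher and a median of -1.28, against medians of -0.08 in db/db 8w and -0.39 in db/db 16w. The 18 genes listed summed to 7140, 5821, 7369 and 3260 CPM in the progenitors. In the Col15a1 preadipocytes the sum was also lowest in HFD, at 8621, 7992, 9592 and 4866 CPM. Hsd11b1, the enzyme that regenerates active glucocorticoid, was at 214 CPM in WT, 159 and 124 in db/db mice (8w and 16w) and 36.2 in HFD. Sgk1, a kinase induced by glucocorticoids, was at 40.0, 63.5, 223 and 91.3 CPM and went the other way. Of 22 interferon genes, 0 were higher and 1 lower in db/db 8w, 0 and 12 in db/db 16w and 2 and 3 in HFD. In db/db 16w, 6 of these genes were at 0 UMIs, and at the level a count of 0 allows the number lower was 7. Among 13 chemokines and cytokines, 3 were higher and 1 lower in db/db 8w, 1 and 6 in db/db 16w and 3 and 3 in HFD. Of the 13, 4 were at 0 UMIs in db/db 16w, and 5 were lower there at the level a count of 0 allows. Ccl2, a monocyte attractant, was at 163, 337, 0 and 22.0 CPM, against 1537, 1393, 382 and 102 CPM in macrophages.

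The remaining lists held few calls. In db/db 16w the shares over all kept genes were 8.4% higher and 12.8% lower, and the protease counts there lay near them. Of 22 proteases and inhibitors, 1 was higher and 0 lower in db/db 8w, 2 and 3 in db/db 16w and 0 and 3 in HFD. Of 9 retinoic acid genes, 1 was higher and 0 lower in db/db 8w, 1 and 3 in db/db 16w and 0 and 0 in HFD. Of 13 unfolded protein response genes, 0 were called in db/db 8w, 0 higher and 2 lower in db/db 16w, and 1 higher and 0 lower in HFD, where the chaperone Hsp90b1 was at 940.2 CPM against 366 in WT. At the level a count of 0 allows, 2 retinoic acid genes and 1 unfolded protein response gene were lower in db/db 16w. Of 8 senescence and p53 genes, 1 was higher and 1 lower in db/db 8w, 0 in either direction in db/db 16w, and 2 and 1 in HFD. Of 16 cell cycle genes only Stmn1 and Pcna were kept, at 26.1 and 32.3 CPM in WT.

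Genes that mark endothelial cells and macrophages were present in the progenitors at levels that differed between libraries. Fabp4, the lipid chaperone of fat and capillary cells, was at 25.1 CPM in WT, 257 and 1350 in db/db mice (8w and 16w) and 2567 in HFD. In the Col15a1 preadipocytes it was also above WT in each obese library, at 1316, 3850, 8878 and 5689 CPM. Endothelial cells numbered 12, 71, 1411 and 1299 in the same libraries, so their levels are least precise in WT. They held Fabp4 at 27702, 33108, 73371 and 38199 CPM. The progenitor level was thus 0.0906%, 0.775%, 1.84% and 6.72% of the endothelial level. In HFD the same percentage was 8.33% for the fatty acid transporter Cd36, 7.0% for Pecam1, 8.99% for Emcn and 4.87% for Egfl7, and in WT it was 0.150%, 0.119%, 0% and 0.0574%. All 14 endothelial markers outside the rule summed to 294 CPM in WT, 572 and 1684 in db/db mice (8w and 16w) and 3684 in HFD, with 2, 0, 4 and 0 of them at 0 UMIs. Fabp4 and Cd36 make up most of that difference, and the other 12 markers summed to 259, 254, 260.1 and 654 CPM, above WT in HFD only. Of these sums 201, 163, 37.2 and 241 CPM came from Tek, and the 11 markers left without it summed to 58.4, 90.8, 223 and 413 CPM. Endothelial genes other than Fabp4 and Cd36 were thus higher in HFD, and in the db/db libraries only once Tek was left out. The part of endothelial RNA in the Fabp4 and Cd36 values was not tested.

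Macrophage genes followed a like order. The 14 macrophage markers outside the rule summed to 119 CPM in WT, 404 and 446 in db/db mice (8w and 16w) and 1288 in HFD, with 0, 0, 5 and 1 of them at 0 UMIs. Cd74, the chaperone of class II antigen presentation, was at 39.9, 128, 0 and 773 CPM, which is 0.555%, 2.10%, 0% and 9.71% of the macrophage level in each library. For H2-Aa the percentage was 9.45% and for H2-Eb1 10.3% in HFD, while Lyz2, C1qa, C1qb and C1qc, which the rule limits, were at 2.48% to 3.29%. The immune genes Srgn at 13.9, 58.4, 124 and 92.9 CPM, Tyrobp at 10.8, 46.4, 99.1 and 101 CPM, and Cd52 at 1.34, 13.7, 198 and 97.6 CPM were higher than WT in all 3 libraries, and the part of macrophage RNA in these values was not tested. For Cthrc1 no library held more than 5.76 CPM in endothelial cells or 1.72 CPM in macrophages, and for Mgp these limits were 90.0 and 23.9 CPM. Mgp was higher in the Col15a1 preadipocytes than in the progenitors of every library. The 4 genes of the Col15a1 signature summed to 480.5, 765, 1016 and 784 CPM in the progenitors. The part of RNA from any other class in the Cthrc1 and Mgp values was not tested. Markers of other cells were low, with the 7 mural cell markers summing to 4.88, 7.93, 37.2 and 139 CPM in the progenitors and the 13 brown adipocyte markers to 11.7, 17.5, 12.4 and 176 CPM.

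**Figure D5:**
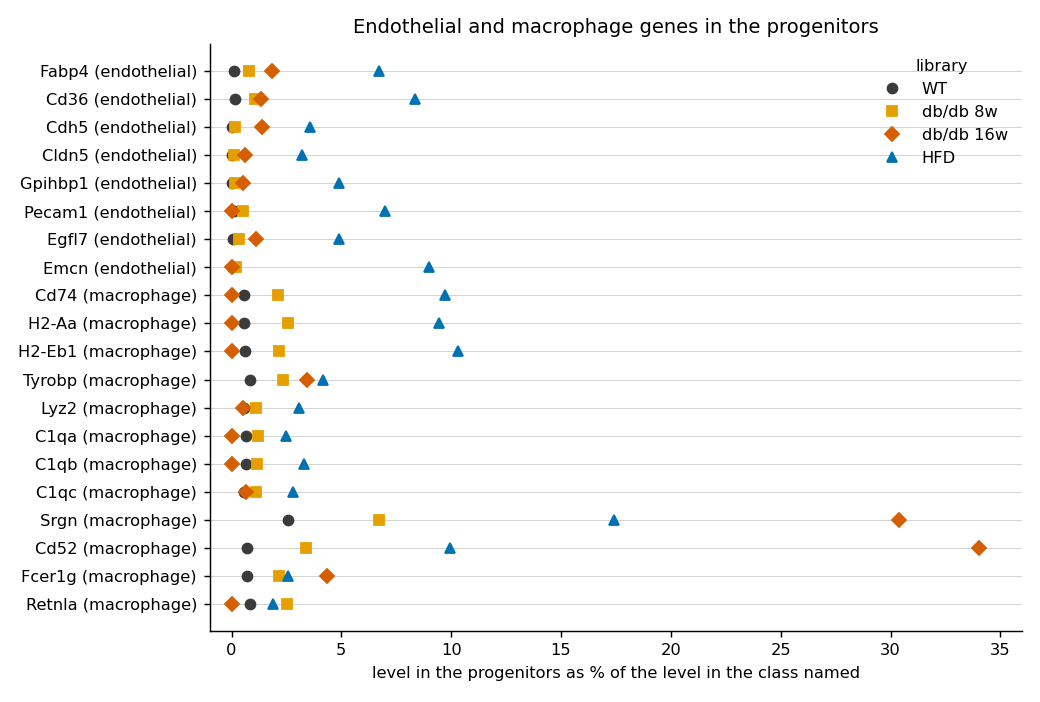
Level in the progenitors as a percentage of the level in the class that the gene marks, for 8 endothelial and 12 macrophage genes, with 1 symbol for each library. HFD has the highest percentage for all 8 endothelial genes, up to 8.99% for Emcn, and Cd52 and Srgn in db/db 16w reach 34.0% and 30.4%.

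Genes with no counts in db/db 16w and genes with a mean near the 20 CPM minimum are weakly measured, and a gene kept because of a high level in 1 library had to differ from the others. Each ratio compares libraries of pooled mice, so the spread between mice was not measured. Fewer transcripts per cell and a change in which cells met the rule cannot be told apart.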

How the data were processed

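Single-cell 3' RNA libraries of BAT SVF were counted by the authors against mm10, and the deposited files hold raw UMI counts per gene and barcode. Cell Ranger 7.1.0 is named in the submitters' processing notes, and the file headers give 6.0.0. The 4 libraries held 50581 barcodes and 198969063 UMIs. Barcodes were kept with 251 to 5999 genes, over 500 and at most 29999 UMIs and under 15% mitochondrial UMIs. Doublet scores came from the Scrublet function of scanpy 1.11.5, whose automatic threshold marked 0 cells in WT and db/db 8w, so the highest scores up to the expected share were taken instead. These cells, 0% to 13.4% of the progenitors in a library, were kept in the values given and left out as an alternative.

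Counts were summed over the progenitors of each library and scaled to CPM. Genes with a mean of at least 20 CPM over the 4 libraries were kept, rule genes excepted. Ratios to WT had 10 CPM added, and a size of at least 1 on the log2 scale was called. Since groups had 1 library each, nothing was tested between them. Shares carry Clopper-Pearson intervals, CPM exact Poisson intervals and ratios exact conditional intervals (95%), which cover counting error only. A count of 0 was taken to allow 3 counts. Sums and calls were also run on simulated Poisson counts with known changes in 200 genes. These held no spread between cells or mice, so the run does not measure the error of the calls. Gene positions came from GENCODE annotation of the same build, which held 138 of 138 named genes.

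The progenitors and all gene lists were chosen with earlier results of these data known. Genes named were the rule genes, up to 4 of each list with the widest differences from WT, all kept progenitor genes, the 8 genes most different in each direction in all 3 comparisons, the 5 highest and 5 lowest in each, and the 12 genes furthest above the other stromal classes. Marker genes of endothelial cells and macrophages were added to these. Alternatives changed the marker sum, its minimum, depth, mitochondrial limit, doublets, denominator, scaling, added CPM and gene filter. Python 3.11.15, NumPy 2.4.6, pandas 2.3.3, SciPy 1.17.1 and Matplotlib 3.10.9 were used.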

Additional observations from a re-analysis of the deposited data

Results flagged for a closer look

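The mitochondrial limit alone removed 208 barcodes of the HFD library that met every other part of the progenitor rule, which makes 18.7% of the 1112 stromal barcodes it removed there (16.5% to 21.1%). In WT it removed 408 such barcodes, in db/db 8w 851 and in db/db 16w 0.

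Some genes differed at least 2-fold from WT in opposite directions in different obese libraries, and none of these differences was tested. Il33 was higher in HFD and lower in db/db 16w, 4.60 apart on the log2 scale with 10 CPM added. Limch1 differed the same way by 2.54 and Fosb by 4.78. Dkk2, a secreted Wnt inhibitor, was at 48.0 CPM in WT, 17.9 and 211 in db/db mice (8w and 16w) and 28.3 in HFD, and its ratios at 16 and 8 weeks of db/db were 2.98 apart. Ccl2 was higher in db/db 8w and lower in db/db 16w, 5.11 apart, but its log2 ratio in db/db 8w lay at the 2-fold limit and ranged from 0.84 to 1.04 over the alternatives, under 2-fold in 4 of them. Mrgprg, an orphan receptor, was at 299, 629, 248 and 3.15 CPM in the progenitors, and its ratios in db/db 8w and HFD were 5.61 apart. The values for Il33 and Ccl2 rest on 0 UMIs in db/db 16w, and at the level a count of 0 allows they are 2.37 and 2.88. In 1 alternative each, Limch1 in db/db 16w, Dkk2 in db/db 8w and Mrgprg in db/db 8w were also under 2-fold.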

How the results depend on the processing

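No paired analysis was possible because each group had 1 library. The order of the progenitor shares was the same under all 13 alternatives, 2 of them added after the data were seen (thinning to 1000 UMIs, and no Has1, Ptx3 and Tnfaip6 limit). In WT the share, 53.2%, became 44.9% without Pi16, 50.4% without Dpp4, 48.8% without Igfbp6, 49.4% with a minimum of 20, 44.2% thinned to 2000 UMIs, 38.4% of all cells and 75.6% with no Has1, Ptx3 and Tnfaip6 limit. In db/db 8w, 31.6% became 28.0% without Pi16, 24.5% without Igfbp6, 29.2% with a minimum of 20, 27.1% thinned, 15.4% of all cells and 38.1% without that limit. In db/db 16w, 2.98% became 1.53% without Igfbp6 and 0.600% of all cells. In HFD, 9.15% became 6.28% with a 10% mitochondrial limit, 13.1% with none, 2.60% of all cells and 12.3% without the Has1, Ptx3 and Tnfaip6 limit. Genes lower in HFD numbered 290 with 1 CPM added, against 168, and genes higher in HFD 282 in cells under 10% mitochondrial UMIs, against 184. With a mean of at least 50 CPM the db/db 16w counts were 234 higher and 353 lower and the HFD count 106 higher. With no filter these were 988, 1784 and 400. Requiring a counting interval that excludes 0, added later, left 281 of the 761 lower in db/db 16w. Without db/db 16w, also added later, 57 genes were higher in every library, against 31. The cause of these shifts was not tested. Of named genes past 2-fold, 41 of 53 in db/db 8w, 84 of 93 in db/db 16w and 59 of 66 in HFD were past 2-fold under every alternative. Depth limits db/db 16w most, where 1 UMI is 12.4 CPM.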

Other observations

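Some genes were nearly absent from the whole HFD library. Of 4142 genes at 30 CPM or more in the progenitors of both WT and db/db 8w, 6 had 0 UMIs in the HFD progenitors. Among them, the complement protease gene C1rb had 8634 UMIs over all barcodes in WT, 3291 and 259 in db/db mice (8w and 16w) and 5 in HFD. C1s2 had 8381, 4441, 381 and 11 UMIs. Their near-identical copies were well covered in HFD, with 3291 UMIs for C1ra and 10118 for C1s1, so that levels of single copies are uncertain. Gm10260 had 23535, 29229, 9077 and 32 UMIs, and Mrgprg, outside those 6, had 8331, 8103, 24 and 6 UMIs.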
